A study of Mus musculus with 4 samples.

Results

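The immunoglobulin heavy chain probes were described across the spleen and liver of mice fed a diet with or without added nucleoprotein. They were chosen by name: a gene probe counted where its gene name began with Igh (other than Ighmbp) or its description spoke of an immunoglobulin heavy chain or a heavy chain variable region. This took 37 of the 41174 gene probes on the array, 13 in constant regions and 24 in variable segments. The family was picked with the diet ratios of these arrays known, so all values are given as a description, with no test.

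The mice were male C57BL/6J, 7 weeks old. The control group was assigned a purified diet (CLEA) with 0.03% nucleic acids, and the nucleoprotein group that diet with 1.2% of a nucleoprotein product (S-nuclegen), which brought nucleic acids to 0.5%. After 4 weeks both groups were injected with lipopolysaccharide (LPS), an outer membrane component of bacteria that provokes inflammation throughout the body, at a dose of 10 mg/kg, and liver and spleen were taken 6 h later, so the effect of LPS itself was not measured. RNA was pooled by diet and compared on 2 two-colour arrays per organ, with nucleoprotein in Cy5 on array 1 and in Cy3 on array 2. The housing notes name a standard chow where the design names the purified diet. How many mice made up a pool is not given in the sources used here. The labels do not say whether arrays 1 and 2 held the same pools, so both were counted as 1 replicate. An SD below is that of the 2 arrays and covers the 2 dye orientations, not mice.

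An antibody is built from a pair of identical heavy chains and a pair of light chains. The heavy chain locus holds many variable (V) segments, followed by short diversity (D) and joining (J) segments and then by the constant regions of the isotypes, in the order mu (IgM), delta, the gamma subclasses (IgG), epsilon and alpha (IgA). Developing B cells join 1 V, 1 D and 1 J segment, and the joined segment is first transcribed with the mu constant region. Class switch recombination later exchanges mu for another isotype. Spleen holds many B cells and antibody-secreting plasma cells, and liver holds fewer.

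The sequences below are those of the probes on which the results turn, as printed on the array. The first 3 lie in gamma constant regions, and the capitals mark a run of 11 bases that all 3 share and that 4 probes on the array hold. Aligned without gaps, the IgG2a and IgG1 probes had 43 of 57 bases in common (75.4%), IgG2a and Ighg 33 of 52 (63.5%), and Ighg and IgG1 34 of 49 (69.4%).

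Igh-1a (serum IgG2a), probe A_51_P311235: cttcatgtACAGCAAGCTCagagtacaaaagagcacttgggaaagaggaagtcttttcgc
Ighg (gamma polypeptide), probe A_52_P74106: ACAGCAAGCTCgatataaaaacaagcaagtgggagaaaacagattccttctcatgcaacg
Igh-4 (serum IgG1), probe A_51_P461067: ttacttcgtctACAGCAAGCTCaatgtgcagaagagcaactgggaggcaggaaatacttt

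The next sequences are a second IgG2a probe, which the file places over a stretch longer than the probe itself, as a probe across a splice junction would be, the IgM probe called in liver, and the brightest probe placed next to the I alpha sequence.

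Igh-1a (serum IgG2a), probe A_51_P351953: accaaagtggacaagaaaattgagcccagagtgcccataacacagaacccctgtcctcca
IgM constant region, probe A_52_P571419: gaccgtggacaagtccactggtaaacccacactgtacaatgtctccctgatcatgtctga
Igh-VJ558, alpha region, probe A_51_P509679: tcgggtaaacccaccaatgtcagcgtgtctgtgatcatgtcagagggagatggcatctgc

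For the variable segments, the called probe and a pair of overlapping J558 probes are shown first. In the last 3, capitals mark the codons near the end of a V segment that lead to its conserved cysteine, as tyrosine, tyrosine (or phenylalanine) and cysteine.

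V segment of an antibody to poly(dC), probe A_52_P259779: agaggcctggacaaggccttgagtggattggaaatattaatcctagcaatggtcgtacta
Igh-VJ558, probe A_52_P151887: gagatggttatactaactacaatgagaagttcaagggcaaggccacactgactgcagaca
Igh-VJ558, probe A_52_P686392: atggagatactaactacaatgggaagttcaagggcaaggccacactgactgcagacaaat
Igh-VJ558, probe A_52_P139027: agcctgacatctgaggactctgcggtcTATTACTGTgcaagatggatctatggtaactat
AY182513, probe A_52_P469009: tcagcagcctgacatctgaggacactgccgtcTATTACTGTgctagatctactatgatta
AF218659, probe A_52_P544090: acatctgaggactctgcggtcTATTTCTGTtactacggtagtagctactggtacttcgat

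That motif was searched on both strands as TATTACTGT, TATTTCTGT or TATTATTGT, and no probe held more than 1 of the 3. Of all 41174 probes, 0.442% (182) held 1 of them, against 12 of the 24 variable members and 0 of the 13 constant members. In 11 of the 12 it lay on the strand printed on the array. In the other, U26470, it lay on the opposite strand, and this probe was above background in too few channels to be measured in either organ. The J558 pair was placed 3 bases apart and matched at 54 of 57 aligned bases (94.7%), so these probes can bind the same transcripts, and V probes in general can bind several related segments.

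In spleen, 36 of the 37 probes were measurable, meaning that for at least 1 of the diets both arrays showed signal well above background. Their median log2 ratio of nucleoprotein over control was -0.33 (-0.29 on array 1 and -0.27 on array 2), against 0.00 over all 26898 measurable probes. A probe was called where both arrays went past 1.5-fold, a log2 ratio of 0.585, to the same side. By that bound 4 members were lower and 0 were higher, where 0.201% of all measurable probes were lower and 0.171% higher. Below 0 on both arrays were 25 members, a direction that 19.5% of all measurable probes had, and above 0 on both were 3, against 20.9%. Past 1.5-fold to opposite sides on the 2 arrays were 0 members, against 0.0186% of all measurable probes. With each array centred on its median in place of loess, the same 4 probes had means of -1.21, -0.89, -0.71 and -0.64, but the 2 arrays stood so far apart that 0 were called. In pooled RNA of a whole organ, a lower ratio can stand for fewer cells of a type or for less RNA per cell, which cannot be told apart.

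The lowest ratios in spleen were those of the probes that the file names Igh-1a (serum IgG2a). IgG2a is a subclass that binds activating Fc receptors and fixes complement. Probe A_51_P311235 (Igh-1a, mm7 chr12_random:5440237-5440296) had control levels of 12.55 and 12.77 on the 2 arrays and nucleoprotein levels of 11.40 and 11.49, as log2 intensity of a single channel. The diets did not overlap, and the ratios were -1.16 and -1.28, with a mean of -1.22 ± 0.09 (SD of the 2 arrays), or 2.32-fold lower. Probe A_51_P351953 of the same transcript (chr12_random:5439095-5439470) had ratios of -0.89 and -0.90, with a mean of -0.89 ± 0.01, or 1.86-fold lower. Both IgG2a probes were thus lower on both arrays. Centred on the median, A_51_P311235 was at -0.24 and -2.18 and A_51_P351953 at -0.18 and -1.61, still below 0 on each. C57BL/6 mice are known to carry the closely related IgG2c gene in place of IgG2a. Throughout, IgG2a is thus only the file's name for these probes, and which transcript bound them was not tested.

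The constant region probe of Ighg (A_52_P74106, chr12_random:5421654-5421713), whose description gives no gamma subclass, lies 18.58 kb from the IgG2a probe A_51_P311235 on the same unplaced contig. Its ratios were -0.61 and -0.81, with a mean of -0.71 ± 0.14, or 1.63-fold lower. It was called lower, but array 1 passed the bound narrowly. With the ratio that Feature Extraction deposited, its arrays stood at -0.56 and -0.85, so it was no longer called. Centred on the median, its array 1 turned to 0.39 while array 2 was at -1.81.

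Markers of the labelled tissue were present, with 14 of 15 B cell and 16 of 16 plasma cell markers measurable in spleen and 13 of 14 hepatocyte markers in liver. In spleen 0 of the 14 B cell markers were called (median -0.04, log2 of the summed level 16.08 and 16.14 in control and 16.0 and 16.08 in nucleoprotein) and 0 of the 16 plasma cell markers (median -0.10, sums 16.04 and 16.06 in control and 15.90 and 15.88 in nucleoprotein). Pancreatic acinar and hepatocyte markers did move in the same spleen pools. All 12 acinar markers were measurable and 11 were lower, with a median of -1.16 and sums of 14.63 and 14.56 in control and 13.44 and 13.28 in nucleoprotein. Of 12 measurable hepatocyte markers 10 were higher, with a median of 1.25 and sums of 11.09 and 10.92 against 12.72 and 12.60. The Igh-1a clone is described as a pancreas cDNA. In the control liver pool, where the acinar sum was 16.71 and 16.70, probe A_51_P311235 was well above background on 0 of 2 arrays. The other Igh-1a probe, A_51_P351953, was well above background on 2 of 2 there, at levels of 6.49 and 6.31. In liver all 12 acinar markers were lower (median -4.04, nucleoprotein sums 12.52 and 12.35). The part of pancreatic, liver or other tissue in the heavy chain ratios was not tested.

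The IgG1 probes, which belong to the subclass most abundant in mouse serum, did not share these ratios. The mean of A_52_P1054013 (Igh-4, chr12:110850541-110850600) was 0.09 ± 0.16, from 0.20 and -0.03. That of A_51_P461067, which shares the 11-base run with the IgG2a and Ighg probes, was 0.08 ± 0.24, from 0.25 and -0.09. The remaining IgG1 probe, A_51_P122752, was at 0.08 and 0.16, or 0.12 ± 0.05. After loess all 3 lay near 0, within 0.585 on each array, on the same arrays on which the IgG2a probes were lower. Centred on the median, they stood at 0.87 and -0.68, 0.94 and -0.78, and 0.82 and -0.57 in the same order. Their means were then 0.10, 0.08 and 0.13.

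IgM is the isotype of resting B cells and of the first antibody response. Its 3 constant region probes did not give 1 direction. A_51_P485421 (Igh-6, chr12:110942769-110942828), the only member printed as several spots, had ratios of -0.09 on array 1 (SD 0.06 over 10 spots) and -0.89 on array 2 (SD 0.09 over 9 spots). The arrays thus differed by far more than the spots within an array. A_52_P571419 (chr12:110942239-110942298), 0.53 kb away, likewise stood at -0.03 and -0.76, with a mean of -0.40 ± 0.52. A_52_P358360, 2.24 kb beyond, was at 0.12 and -0.24, with a mean of -0.06 ± 0.25. None of the 3 was called in spleen. These are bright probes (control levels of 14.98, 16.19 and 15.38), and centred on the median A_52_P571419 stood at 1.30 and -2.08.

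Igh-VJ558 is the file's name for 9 members, although the name stands for a V segment family. Of these, 3 probes were placed 5.0 kb from a probe described as an I alpha transcript, 68.99 kb beyond IgG1, and are treated here as the alpha region by that position. IgA is the main antibody of mucosal surfaces, and I alpha transcripts run through the alpha region before a switch to it. In spleen A_51_P187645 had ratios of 0.72 and -0.09 (0.32 ± 0.57), A_51_P509679 (chr12:110781031-110781090) 0.56 and -0.15 (0.21 ± 0.50), and A_51_P180159 0.46 and 0.01 (0.23 ± 0.32). They were the 3 highest means of the family, and none was called. After loess they rested on array 1. With the deposited log ratio all 3 were above 0 on both arrays, at 0.58 and 0.14, 0.37 and 0.14, and 0.31 and 0.19 in the same order. Centred on the median, the arrays instead stood on opposite sides of 0, at 1.92 and -1.29, 1.86 and -1.46, and 1.65 and -1.19. The I alpha probe A_51_P270661 was at -0.13 and 0.05 (-0.04 ± 0.13).

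Of the 24 variable segment probes, 23 were measurable in spleen. Their median was -0.37 (-0.33 and -0.34 on the 2 arrays), with single probes between -0.63 and 0.06. Of the 23, 20 lay below 0 on both arrays, 1 above 0 on both, and 2 on opposite sides. Most variable probes thus lay below 0 after loess but short of the bound. Only A_52_P259779 (chr12:112679944-112680003), named for an antibody to poly(dC), was called, at -0.67 and -0.59 (-0.63 ± 0.06, or 1.55-fold lower), and centred on the median it was at -0.08 and -1.20. Just outside the bound lay A_51_P117903, the V region probe of the same Ighg clone as A_52_P74106, at -0.66 and -0.51 (-0.58 ± 0.11).

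Along the locus, 16 variable members fell on either side of a 420.46 kb gap between neighbouring members, a division drawn with the values known. The 9 beyond the gap, between 1287.92 and 2745.28 kb from the IgM probe A_52_P571419, all lay below 0 on both arrays, with a median of -0.44 (-0.56 and -0.46) and a range from -0.63 to -0.33. This far end of the mouse locus is where J558 family segments are known to lie, and 4 of the 9 probes carry that name. Among them A_52_P151887 (chr12:113687521-113687580) was at -0.56 and -0.53 (-0.55 ± 0.03) and its overlapping neighbour A_52_P686392 at -0.56 and -0.42 (-0.49 ± 0.10). A_52_P139027 was at -0.61 and -0.27 (-0.44 ± 0.24), and A_51_P328275 at -0.30 and -0.53 (-0.41 ± 0.16). After loess all 4 J558 probes there were below 0 on each array. Centred on the median, array 1 turned above 0 for all 4, while array 2 stayed below 0. In the order above they stood at 0.11 and -1.19, 0.09 and -1.10, 0.32 and -1.17, and 0.32 and -1.14. The other 4 uncalled members of the far side are X12388 (A_52_P648824) at -0.28 and -0.47 (-0.37 ± 0.13), AF218659 at -0.29 and -0.37 (-0.33 ± 0.06), AY172876 (A_52_P565636) at -0.20 and -0.46 (-0.33 ± 0.18) and the V segment of monoclonal antibody FC1 (A_52_P443776) at -0.60 and -0.28 (-0.44 ± 0.23).

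The 7 members nearer to D and J, between 176.60 and 867.40 kb from the IgM probe, were spread around a median of -0.05, which was -0.20 on array 1 alone and -0.03 on array 2 alone. Of these, 4 lay below 0 on both arrays. The group reached down to the range of the far side without filling it. AY182513 (A_52_P469009, chr12:111581219-111581278) was the lowest, at -0.40 and -0.34 (-0.37 ± 0.04). D17387 (A_51_P103945) followed at -0.32 and -0.20 (-0.26 ± 0.09). The S107 family segment A_52_P160554 was at -0.06 and -0.03 (-0.05 ± 0.03), and AB056117 (A_52_P528041), whose ends lie 272.66 kb apart at a V and a J segment, at 0.11 and 0.00 (0.06 ± 0.08). The probe A_51_P391836 of clone BC004786 was at -0.06 and 0.15 (0.05 ± 0.14). That clone also holds the 3 alpha region probes, so its V and constant probes can come from 1 transcript but are spaced as separate segments on the genome. The names of other members do not match their place either. A_52_P311042, named Igh-6, lay among the V segments and was at -0.33 and -0.18 (-0.25 ± 0.11). A_51_P275642, named Ighg, lay there too, at -0.20 and 0.25 (0.02 ± 0.32).

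A further 2 variable members were placed at the J segments, 7.66 and 7.64 kb from the IgM probe. AY172399 (A_52_P377838) was at -0.55 and -0.49 (-0.52 ± 0.04), and AY895789 (A_52_P463637) at -0.35 and -0.24 (-0.30 ± 0.08). Both lay below 0 on each array. The 5 variable members without a position had 4 measurable probes, with a median of -0.27. AY173987 (A_52_P149845) was at -0.39 ± 0.07, X78107 (A_52_P275894), from an IgG1 antibody, at -0.16 ± 0.02 and AY182587 (A_52_P530750) at -0.13 ± 0.00, each with both arrays below 0. Their brightest, AF210281 (A_52_P476989), matched A_52_P139027 at 48 of 55 aligned bases (87.3%) and was at -0.35 and -0.38 (-0.37 ± 0.02). The 11 measurable variable members with the cysteine motif had a median of -0.37 and the 12 without it -0.36.

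The array held 48 more probes on the same strand of the locus that the names did not select, which were not part of the choice of members but lie in the same contrast. Of these, 43 were measurable in spleen, with a median of -0.24, and 32 lay below 0 on both arrays. Split at the middle of that gap, in which some of them lie, the 28 on the far side had a median of -0.35 with 25 below 0 on both arrays, and the 11 nearer to D and J had -0.12 with 6 below 0. The median of the far side was thus lower among these probes too, but on the same arrays, so they are no separate support for the division. Only A_52_P53507 (LOC629826), on the near side, was called lower, at -0.80 ± 0.03. Means ran from -0.80 to 0.35 on the near side and from -0.56 to 0.03 on the far side. On the constant side, 4 measurable probes, among them IgE and IgD sequences, had a median of -0.02 and none was called.

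In liver, 12 members were measurable, 10 of them in constant regions. Their median was -0.01 (-0.04 and -0.02 on the 2 arrays), against 0.01 over all 23725 measurable probes. By the same bound 1 was lower and 0 were higher, where 0.244% of all measurable probes were lower and 0.00843% higher. Below 0 on both arrays were 3, against 13.9% of all measurable probes, and above 0 on both were 2, against 20.0%. Past 1.5-fold to opposite sides were 0 members, against 0.4%. The liver values therefore describe mainly constant regions.

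The liver probe called lower was the IgM probe A_52_P571419. Its control levels were 9.89 and 10.25 and its nucleoprotein levels 9.24 and 9.0, so the diets did not overlap. The ratios were -0.64 and -1.25, with a mean of -0.95 ± 0.43. The other IgM probes were not called. A_51_P485421 was at -0.11 and -0.51 (-0.31 ± 0.28), and A_52_P358360 at -0.14 and 0.06 (-0.04 ± 0.14). Centred on the median, A_52_P571419 stood at 0.70 and -2.15, with a mean of -0.72, and was not called. With the deposited log ratio it stood at -0.94 and -1.35 and was called. By that ratio A_51_P485421 was much lower too, at -0.45 and -1.29 (mean -0.87), which moved the median of the 3 liver IgM probes from -0.31 to -0.87, while A_52_P358360 was at -0.26 and 0.12.

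All other measurable members in liver had means between -0.07 and 0.09. The alpha probes stood on opposite sides of 0 on the 2 arrays, with means of -0.07 (A_51_P187645), 0.05 (A_51_P509679) and -0.02 (A_51_P180159), and the I alpha probe was at -0.06 ± 0.01. For IgG1, A_52_P1054013 was at 0.02 ± 0.02 and A_51_P122752 at -0.01 ± 0.14. The IgG2a probe A_51_P351953 was at -0.05 and 0.10 (0.02 ± 0.10), while A_51_P311235 was well above background on 0 of 2 liver arrays in either diet. The V probes A_51_P275642 and A_51_P391836 were at 0.09 ± 0.01 and 0.02 ± 0.05. The difference between the organs was not tested.

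Most of the family had far more signal in spleen than in liver, as known for antibody genes. Over the 36 members measurable in spleen, the median difference of control levels, spleen minus liver between channels of equal dye, was 3.82 (SD 0.11 over the 2 dyes) on the log2 scale. For 33 of the 36 it passed 2-fold in both dyes. The share of all probes past that bound was not computed, so this count has no background beside it. It ran from -0.04 for the I alpha probe to 7.60 for the IgM probe A_51_P485421. For probes dim in both liver arrays only a lower bound on the fold can be given, taking the liver level as the higher of its own and the lowest signal well above background. By it A_51_P311235 was at least 88.2-fold brighter in spleen and A_52_P259779 at least 7.34-fold. These are differences between pooled samples.

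The genes that act with the heavy chain were read from lists of known roles, each gene by its brightest probe. Among all 18139 genes measurable in spleen, 0.209% were higher and 0.226% lower by the same bound. Below 0 on both arrays were 19.5% of all measurable spleen probes, a share that was not computed for genes. Of 20 plasma cell differentiation and secretion genes, 0 were called and the median was -0.09, with 11 below 0 on both arrays. Their brightest were Hspa5, an endoplasmic reticulum chaperone that holds heavy chains before assembly (-0.03 ± 0.21), Jchain, which links IgM and IgA into polymers (-0.27 ± 0.37), and Sec61b of the protein channel into that compartment (-0.02 ± 0.14). Each of these 3 lay nearer to 0 than the IgG2a probes.

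Of 20 measurable class switch and V(D)J recombination genes, 0 were called, with a median of 0.01 and 4 below 0 on both arrays. The brightest were the DNA-bending proteins Hmgb1 (-0.12 ± 0.02) and Hmgb2 (-0.21 ± 0.19) and the uracil glycosylase Ung (0.01 ± 0.07). Of 11 measurable immunoglobulin receptors and transporters, 0 were called, with a median of -0.01. Their brightest were the Fc receptor genes Fcer1g (0.02 ± 0.03), Fcgr4 (-0.01 ± 0.04), whose product binds IgG2a, and Fcgr2b (0.04 ± 0.06).

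Of 14 measurable receptor partners and proximal signalling genes, 0 were called, with a median of -0.04 and 7 below 0 on both arrays. The brightest were the adaptor Blnk (-0.09 ± 0.03), the coreceptor member Cd81 (-0.01 ± 0.07) and Cd79b, which carries the signal of surface IgM (-0.24 ± 0.11). The surrogate light chain genes, which pair with the heavy chain in pre-B cells, had 4 measurable members, 0 called and a median of 0.05, with Vpreb3 the brightest (0.08 ± 0.03), then Vpreb1 (0.02 ± 0.04) and Vpreb2 (0.09 ± 0.11). In liver, 0 genes of the 5 lists were called either, where 0.0122% of 16413 measurable genes were higher and 0.317% lower. The light chain probes had a median of -0.13 in spleen. Of 34 measurable, 2 were lower and 0 higher, against 0.201% and 0.171% of all measurable probes. Below 0 on both arrays were 21, against 19.5%.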

How the data were processed

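RNA pooled by diet from spleen and liver was hybridised to 4 two-colour Agilent arrays, 2 per organ with dyes exchanged. The authors deposited scanner files. Per the submitters' processing notes they came from Agilent Feature Extraction 9.5.3.1, and per the file headers the spot analysis step was 9.5.1.1. Per the file headers these hold mean and local background intensity per spot and channel, and the log10 ratio of red over green. The deposited series value table was only checked against the files: it holds the linear ratio of red over green, with a minus sign of unknown purpose on the array 1 columns (column medians -0.92, 0.92, -0.96 and 0.96).

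Each array had 43379 gene spots for 41174 probes. Spots flagged as non-uniform or population outliers (189 to 354 per array) were dropped, and 0 were saturated. Intensities were corrected by normexp (offset 50) and normalized by within-array loess with limma 3.58.1 in R 4.3.3, spots of a probe were averaged, and ratios were turned to nucleoprotein over control. Single-channel levels came after Aquantile scaling. The steps were tested by putting known fold changes into the nucleoprotein channel of the real arrays, on probes well above background on every array. The number of arrays limits the precision.

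The members, groups and lists were chosen with earlier results of these data known. Named members were those called in either organ, the 8 lowest and 5 highest means per organ, the probe brightest in control spleen in each group, and members sharing a gene name with these. The remaining members were named as well, outside that rule, to account for every probe. Context genes named were those called and the 3 brightest per list. Context genes were named through a RefSeq gene table (GRCm38.p6, names only). Positions are the files' own, on mouse build mm7. No test was run, since the 2 arrays of an organ were counted as 1 replicate: the labels do not say whether they held the same pools. Alternatives were median centring, the deposited log10 ratio, a normexp offset of 10, other filters, a 2-fold bound, other level scaling and leaving out each array.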

Additional observations from a re-analysis of the deposited data

Results flagged for a closer look

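The median ratio of the 7 variable segment probes near D and J was flagged because its sign differed between the organs on every array. It was -0.20 and -0.03 on the spleen arrays and 0.03 and 0.08 on the liver arrays, a difference of -0.17 between the organ means, spleen minus liver. In liver only 2 of the 7 probes, A_51_P275642 and A_51_P391836, were measurable, so the medians cover different probes. The difference was not tested.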

How the results depend on the processing

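No paired analysis was possible because each array carries both diets, the arrays that share a number come from different organs, and no result comes from a test. The count of 4 lower probes in spleen was 0 with median centring and 1 at a 2-fold bound, and the count of 1 in liver was 0 under each of these. Leaving out an array gave 6 to 7 lower and 0 to 1 higher probes in spleen. The spleen median of -0.33 was -0.37 with the deposited log ratio and lay between -0.29 and -0.27 when an array was left out. The liver median of -0.01 was 0.043 with median centring, where all measurable probes had a median of 0.14, -0.079 with the deposited log ratio and -0.0031 with an offset of 10, and lay between -0.036 and -0.025 when an array was left out. The spleen minus liver level of 3.82 was 3.65 in the nucleoprotein channels, and 3.74 to 3.90 with a dye left out. The cause of these shifts was not tested. No called probe changed the sign of its mean under any of these. Counts of probes below 0 on both arrays were taken after loess only. Keeping flagged spots, no filter, a stricter filter and an offset of 10 left 4 lower probes in spleen and 1 in liver, and the deposited log ratio left 3 and 1. Dim probes in liver limit what can be said of variable segments there.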
